A study of Mus musculus with 6 samples.

Results

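The 35 genes described here mark neurons of the enteric nervous system, the network of nerve cells inside the wall of the gut, and were measured in colon tissue of mice with chemically induced colon tumours, with or without daily restraint. They were listed by symbol, and a gene entered when its counts in the deposited table were not all 0. All 35 symbols met this, out of 20170 genes in the table. The nearest to the limit was Calb1, with 1 to 7 counts per sample, and no listed gene lay outside it. Because the list was drawn up with earlier results of this same comparison known, differences between the groups are given here as descriptions of these samples.

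Enteric neurons lie in 2 layers, the myenteric plexus between the muscle coats and the submucosal plexus beneath the mucosa, and they drive and relax the gut muscle and set secretion. Excitatory motor neurons release acetylcholine and tachykinins such as substance P and contract the muscle. Inhibitory motor neurons make nitric oxide and vasoactive intestinal peptide (VIP) and relax it. All of them descend from neural crest cells whose survival and migration depend on the receptors RET and EDNRB, and all share a set of axonal and synaptic proteins with neurons elsewhere.

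Both groups were C57BL/6J mice of wild-type genotype that received azoxymethane (AOM), a mutagen, at 10 mg/kg by injection, and then 3 rounds of 2% dextran sulfate sodium (DSS), an irritant of the colon, in the drinking water. The 3 control samples came from mice given AOM/DSS only. The 3 stressed samples came from mice that were in addition restrained each day, for 3 to 4 hours, inside a 50 mL tube with air holes. The sources used here do not give age, sex, the position along the colon or whether each sample is a separate mouse, so the spread between samples may be partly technical, and there was no group without AOM/DSS.

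Total counts ran from 27160547 to 33017500 per sample, and the listed genes together held 8962 to 17314 counts, or 0.0273% to 0.0597% of a sample. Values are given as CPM, counts scaled to a common library size by the TMM method. A gene with 0 counts could still lie at up to 3 counts, or 0.0911 to 0.1105 CPM by sample, which covers counting error only. The labels name the cell type as colorectal cancer cell, whereas each sample held RNA of several tissue layers. Epcam, an epithelial adhesion protein, was at 2035 to 2575 CPM, and Myh11, the smooth muscle myosin, at 406 to 1818 CPM. Control replicate 3 stood apart with 890 CPM of Krt5, a keratin of squamous epithelium, against 0 to 0.67 CPM in the other 5 samples. Control replicate 1 held the most RNA of most neuronal genes, and some results are given with and without either sample.

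Neuronal RNA stood lower in the stressed samples. Of the 34 members that passed the filter on low counts, 31 had a lower fitted level and 3 a higher one (51.6% of all genes were lower), with a median log2 fold change (stressed minus control) of -1.21, where all 15890 genes tested had a median of -0.01. For 25 of the 35 members every stressed sample lay below every control sample. Among all genes tested 11.2% did so. No member passed an adjusted p of 0.05 in the edgeR quasi-likelihood test over all genes, in which 0 genes passed (0.0%) and the adjusted p of the members ran from 0.191 to 0.744. At an unadjusted p under 0.05, 26 members were lower and 1, Tbx3, was higher, against 8.82% and 7.82% of all genes. DESeq2, run beside it, called 21 members lower and 0 higher at an adjusted p of 0.05 (2.87% and 2.28% of all genes), and limma-voom called 0 (0.0%), with 2591 genes at an unadjusted p under 0.05. In tissue RNA such as this, fewer neurons and less RNA per neuron cannot be told apart. Smooth muscle genes were lower as well, with a median log2 fold change of -1.05, and the part of muscle content was not tested.

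**Figure D1:**
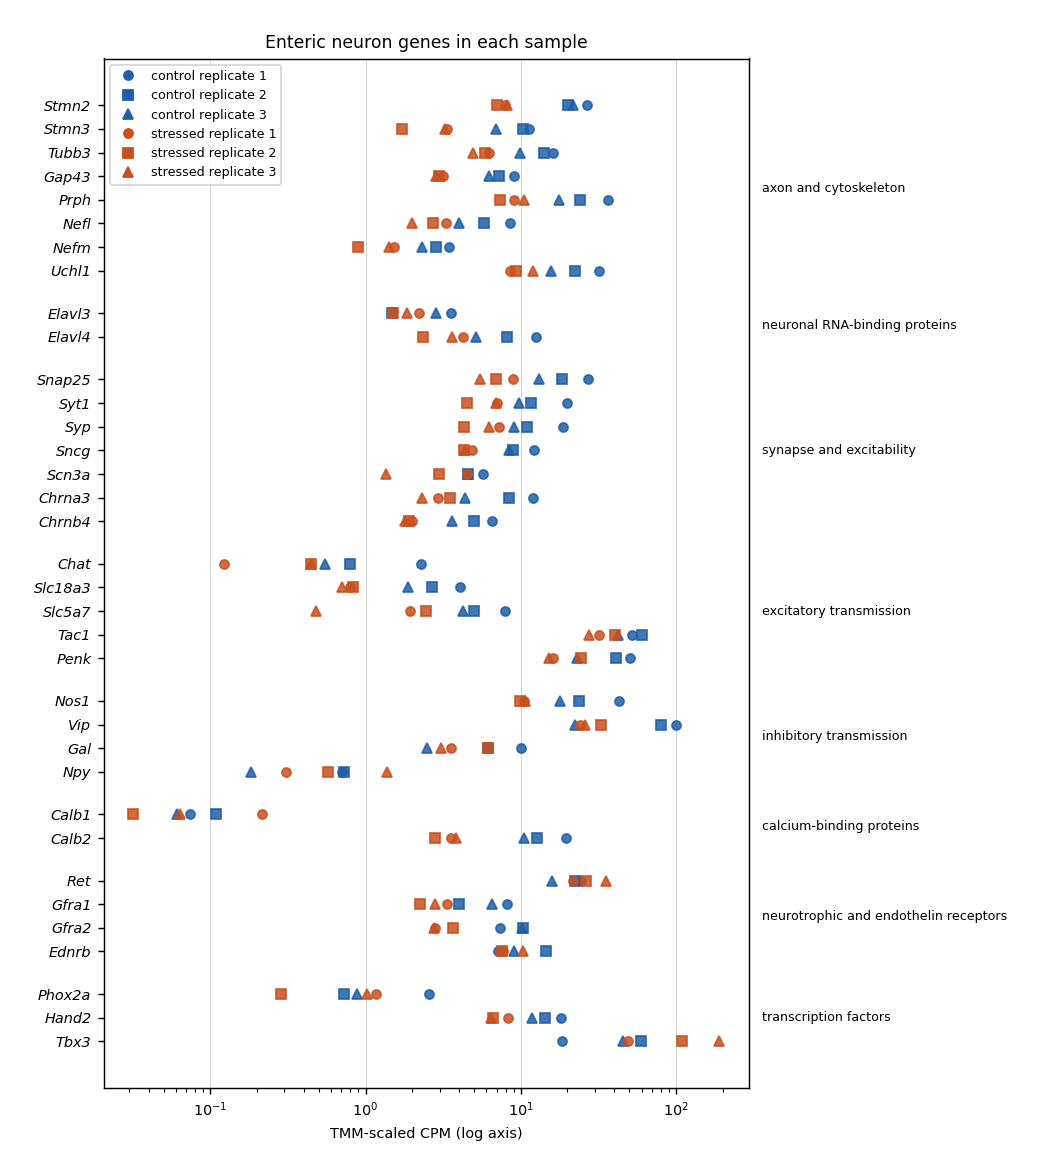
TMM-scaled CPM (log axis) of the 35 genes, grouped by role, with 1 point per sample for the 3 controls and the 3 stressed samples. In 25 genes every stressed sample lies left of every control; Tbx3 is the clearest exception, reaching 191 CPM in stressed replicate 3.

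The genes of the axon and its cytoskeleton were all lower, 8 of 8, with log2 fold changes from -1.77 to -1.17 and a median of -1.28, and in all 8 the groups did not overlap. Stmn2, a stathmin that regulates microtubules in growing axons, was at 26.9, 20.1 and 21.6 CPM in controls (replicates 1, 2 and 3, an order kept throughout) and at 7.93, 7.02 and 8.17 CPM in the stressed group. The stressed values lay close to each other and well below the lowest control, with a log2 fold change of -1.57 ± 0.18 (SE). Its relative Stmn3 was at 11.3, 10.3 and 6.96 CPM in controls and at 3.37, 1.72 and 3.235 CPM in stressed samples (log2 fold change -1.77 ± 0.35). Stressed replicate 2 was the lowest of the 6 for Stmn3, as it was for 12 of the tested members.

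Prph encodes peripherin, an intermediate filament of peripheral neurons. It was at 36.7, 24.0 and 17.55 CPM in controls and at 9.10, 7.34 and 10.6 CPM in stressed samples (log2 fold change -1.53 ± 0.30). The controls spread more than the stressed samples, and control replicate 1 was the highest. Uchl1, the neuronal ubiquitin hydrolase also known as PGP9.5 and widely used to stain gut nerves, was at 31.7, 22.4 and 15.7 CPM and at 8.48, 9.35 and 11.95 CPM, with no overlap. Its exons overlap those of Uchl1os on the opposite strand in GENCODE M21, and without a stated strand setting reads of the pair cannot be fully told apart. Tubb3, neuronal beta-tubulin, was at 16.1, 14.2 and 9.94 CPM in controls and at 6.22, 5.87 and 4.90 CPM in stressed samples. Gap43, a growth cone protein, was at 8.99, 7.29 and 6.26 CPM and at 3.15, 2.97 and 2.85 CPM. In these genes too the 3 stressed samples all lay below the controls. The neurofilament genes Nefl and Nefm were lower too, with log2 fold changes of -1.18 ± 0.37 and -1.17 ± 0.36. Their exons overlap on opposite strands in GENCODE M21 and the sources used here do not give the strand setting of the counting, so reads of this pair cannot be fully told apart.

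Of the neuronal Hu proteins, which bind RNA and are the standard stain for counting enteric nerve cell bodies, Elavl4 (HuD) was at 12.6, 8.15 and 5.17 CPM in controls and at 4.26, 2.36 and 3.62 CPM in stressed samples. Elavl3 (HuC) was at 3.54, 1.48 and 2.83 CPM and at 2.21, 1.50 and 1.86 CPM. The groups overlapped for Elavl3, whose log2 fold change was -0.50 ± 0.40.

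The 7 genes of synapse and excitability were all lower, with a median log2 fold change of -1.16, and their groups did not overlap. Snap25, a SNARE protein of transmitter release, was at 27.3, 18.5 and 13.1 CPM in controls and at 8.91, 6.92 and 5.45 CPM in stressed samples (log2 fold change -1.47 ± 0.32). Syt1, the calcium sensor of synaptic vesicles, was at 19.9, 11.6 and 9.70 CPM and at 6.98, 4.50 and 6.92 CPM. The control of highest level was again replicate 1. Syp, a vesicle membrane protein, and Sncg, gamma-synuclein, had log2 fold changes of -1.12 ± 0.34 and -1.12 ± 0.23. The weakest of the group was the sodium channel gene Scn3a, at 5.71, 4.55 and 4.59 CPM in controls and at 4.50, 2.97 and 1.35 CPM in stressed samples. Stressed replicate 1 lay just under the lowest control, and the log2 fold change was -0.75 ± 0.44.

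Chrna3 and Chrnb4 encode the subunits of the nicotinic receptor through which acetylcholine passes signals between enteric neurons. Chrna3 was at 12.0, 8.37 and 4.38 CPM in controls and at 2.94, 3.48 and 2.31 CPM in stressed samples. Chrnb4 was at 6.49, 5.01 and 3.62 CPM and at 1.99, 1.91 and 1.79 CPM. Their log2 fold changes were -1.50 ± 0.40 and -1.40 ± 0.31, so the paired subunits shifted by amounts that differ by less than their errors.

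**Figure D2:**
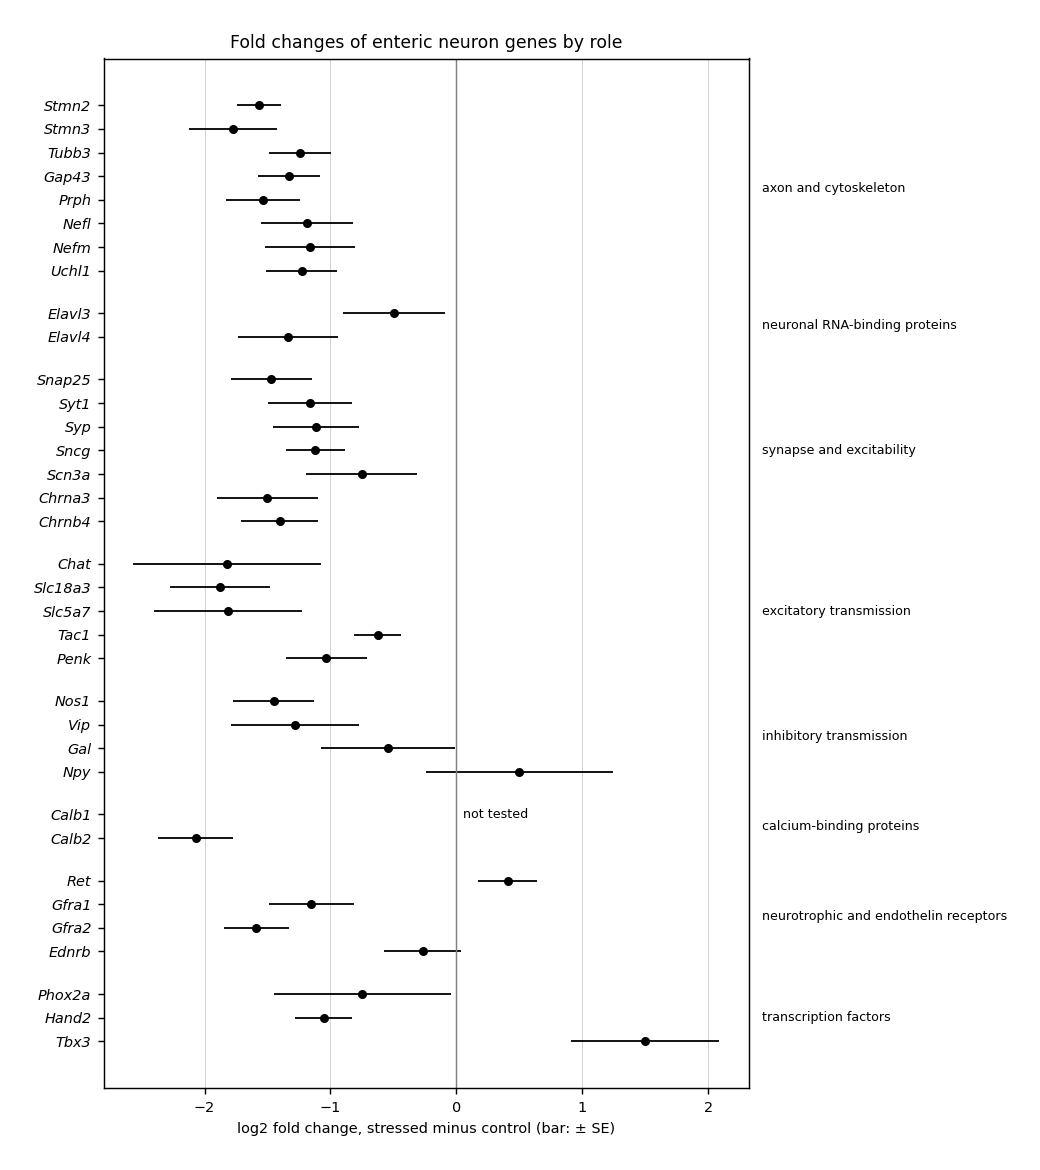
Log2 fold change of each member, stressed minus control, with bars of ± SE from the edgeR fit over all genes, grouped by role. Most members lie between -2.07 and -0.50, while Npy, Ret and Tbx3 lie to the right of 0; Calb1 was not tested.

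Transmitter genes are where excitatory and inhibitory neurons part. The promoters of 5 of them are shown: 2 acetylcholine genes, neuronal nitric oxide synthase and the peptides Vip and Tac1. They were chosen with their sequences known, as transmitter genes whose promoter holds the motif marked here. Gal holds it too and is not shown, and Slc5a7, the other acetylcholine gene, has a promoter in the set without it. Each stretch runs from 250 bases before to 50 bases after the gene's start (RefSeq, GRCm38.p6), and capitals mark TGACG on either strand, the half-site bound by the cAMP-responsive factor CREB. Slc18a3 lies at chr14:32464801-32465100 and Chat at chr14:32465860-32466159, both on the minus strand, with the Slc18a3 window next to the start of Chat, since Slc18a3 lies within an intron of Chat. Nos1 lies at chr5:117866589-117866888, Vip at chr10:5638968-5639267 and Tac1 at chr6:7554811-7555110, all on the plus strand.
Slc18a3: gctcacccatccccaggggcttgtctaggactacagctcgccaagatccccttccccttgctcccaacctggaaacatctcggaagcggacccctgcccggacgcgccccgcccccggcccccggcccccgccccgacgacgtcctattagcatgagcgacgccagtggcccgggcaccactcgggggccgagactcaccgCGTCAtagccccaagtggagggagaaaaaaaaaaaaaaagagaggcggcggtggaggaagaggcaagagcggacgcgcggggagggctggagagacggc
Chat: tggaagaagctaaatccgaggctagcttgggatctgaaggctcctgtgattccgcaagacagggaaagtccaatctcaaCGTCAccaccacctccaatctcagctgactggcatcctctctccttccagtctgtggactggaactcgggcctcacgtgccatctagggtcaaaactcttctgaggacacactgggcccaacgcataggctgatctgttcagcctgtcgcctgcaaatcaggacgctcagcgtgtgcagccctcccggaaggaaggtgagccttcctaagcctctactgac
Nos1: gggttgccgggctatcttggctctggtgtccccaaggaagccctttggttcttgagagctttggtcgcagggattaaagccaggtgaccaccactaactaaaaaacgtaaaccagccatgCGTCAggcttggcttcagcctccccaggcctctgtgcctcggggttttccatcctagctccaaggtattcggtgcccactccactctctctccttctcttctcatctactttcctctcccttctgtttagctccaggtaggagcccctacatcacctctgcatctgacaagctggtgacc
Vip: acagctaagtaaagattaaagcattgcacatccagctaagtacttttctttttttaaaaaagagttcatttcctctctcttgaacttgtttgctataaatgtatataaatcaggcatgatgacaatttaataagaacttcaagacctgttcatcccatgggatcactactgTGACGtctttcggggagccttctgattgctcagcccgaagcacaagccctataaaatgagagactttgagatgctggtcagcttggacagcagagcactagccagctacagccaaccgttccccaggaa
Tac1: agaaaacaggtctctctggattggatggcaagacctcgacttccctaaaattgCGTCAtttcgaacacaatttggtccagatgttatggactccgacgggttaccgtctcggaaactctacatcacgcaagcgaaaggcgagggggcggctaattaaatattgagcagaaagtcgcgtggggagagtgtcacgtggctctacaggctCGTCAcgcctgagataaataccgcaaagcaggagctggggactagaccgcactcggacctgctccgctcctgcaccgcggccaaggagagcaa

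Of the 35 members 23 had a promoter in the RefSeq set, and 10 of these held TGACG (43.5%), against 20.8% of all 32851 promoters of the same length. In Vip the motif began 79 bases before the start and in Slc18a3 49 bases before it. Of the other motifs searched on both strands, TATAAA stood in 4 of the 23 members (13.6% of all promoters), CANNTG, which contains no fixed middle bases, in 15 (72.3%), GGACAG in 6 (22.2%) and CAGCACC in 2 (7.14%). These are matches of letters, and the motifs were chosen with the data known.

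The acetylcholine genes were among the most reduced members. Slc18a3, the transporter that loads acetylcholine into vesicles, was at 4.05, 2.67 and 1.89 CPM in controls and at 0.80, 0.83 and 0.70 CPM in stressed samples (log2 fold change -1.88 ± 0.40). Slc5a7, the choline transporter that supplies the precursor, was at 7.89, 5.01 and 4.26 CPM and at 1.93, 2.46 and 0.48 CPM, with stressed replicate 3 the lowest. Chat, choline acetyltransferase, was scarce, with 62, 22 and 18 counts in controls and 4, 14 and 14 counts in stressed samples. The Chat difference leaned on control replicate 1, without which its log2 fold change was -0.98 in place of -1.82. For each of the 3 genes the groups did not overlap.

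The peptides of excitatory neurons were lower by less. Tac1, the precursor of substance P, was at 51.9, 60.0 and 42.5 CPM in controls and at 32.0, 40.3 and 27.7 CPM in stressed samples (log2 fold change -0.63 ± 0.18). The highest stressed and the lowest control value lay close together. Penk, the enkephalin precursor, was at 50.5, 41.2 and 22.9 CPM and at 16.2, 24.5 and 15.3 CPM, and its groups overlapped because stressed replicate 2 lay above control replicate 3. The 5 excitatory genes had a median log2 fold change of -1.81, which was -0.98 without control replicate 1, -1.41 without stressed replicate 1 and -1.38 without stressed replicate 3.

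Among inhibitory genes only Nos1 separated the groups. Nos1, neuronal nitric oxide synthase, was at 43.2, 23.9 and 17.9 CPM in controls and at 10.6, 9.86 and 10.6 CPM in stressed samples (log2 fold change -1.45 ± 0.32). Without control replicate 1 that log2 fold change was -1.01. The stressed samples were nearly equal to each other, while control replicate 1 lay far above the other two controls. Vip, the precursor of VIP, was at 99.7, 79.7 and 22.3 CPM and at 24.2, 32.8 and 26.0 CPM. Control replicate 3, the sample with squamous keratin, lay below all stressed samples for Vip, and without it the log2 fold change was -1.70 in place of -1.28. Without control replicate 1 the Vip value was -0.88. Gal, galanin, was at 10.1, 6.13 and 2.49 CPM and at 3.55, 6.19 and 3.07 CPM, which overlapped. The Gal log2 fold change was -0.54, and -0.012 without control replicate 1. Npy, neuropeptide Y, was near the detection limit at 0.18 to 0.72 CPM in controls and 0.31 to 1.38 CPM in stressed samples.

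The median log2 fold change of the 4 inhibitory genes was -0.91, and -0.45 without control replicate 1. It lay closer to 0 than that of the excitatory genes and of the 17 pan-neuronal genes (axon, Hu proteins, synapse and excitability), at -1.24. With 5 and 4 genes of unequal depth these medians are a description. Among genes with at least 1 CPM in at least 3 samples, which leaves out Chat and Npy, they were -1.43 for excitatory and -1.29 for inhibitory genes.

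For genes made by neurons alone, a ratio within each sample takes out how much neuronal RNA the sample held. For genes that other cells also make, such a ratio rises where neuronal RNA is lower. The summed CPM of the 17 pan-neuronal genes was 262, 184 and 145 in controls and 87.0, 70.2 and 79.0 in stressed samples. Per 100 CPM of this sum, the 5 excitatory genes stood at 51.2 ± 7.60 in controls and 70.9 ± 23.2 in stressed samples (SD, n = 3 each), and the 4 inhibitory genes at 49.4 ± 17.2 and 55.6 ± 13.4. Each pair of groups overlapped, and the excitatory sum is mostly Tac1 and Penk, which other cells also express. The 3 acetylcholine genes Chat, Slc18a3 and Slc5a7 alone stood at 4.88 ± 0.480 in controls and 3.55 ± 1.64 in stressed samples. Their mean thus moved the other way, again with overlap. Nos1 stood at 13.9 ± 2.25 and 13.2 ± 0.975 per 100 pan-neuronal CPM, a difference smaller than the spread of the samples.

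Calb2 and Slc18a3 were lower even against the other neuronal genes. Calb2 encodes calretinin, a calcium-binding protein of cholinergic neurons and interneurons. It was at 19.6, 12.7 and 10.5 CPM in controls and at 3.55, 2.81 and 3.81 CPM in stressed samples, and its log2 fold change of -2.07 ± 0.30 was the lowest of the members. Per 100 pan-neuronal CPM it stood at 7.47, 6.88 and 7.23 in controls and at 4.085, 4.00 and 4.83 in stressed samples, with narrow groups that did not overlap. Slc18a3 stood at 1.548, 1.447 and 1.299 in controls and at 0.9155, 1.18 and 0.892 in stressed samples. Its stressed values rest on 22 to 26 counts each, and the highest of them lay close to the lowest control. By the same ratio the other acetylcholine genes, Chat and Slc5a7, overlapped between the groups. Of the 17 tested members outside the pan-neuronal set, these 2 were lower by this ratio with no overlap (0.245% of all genes tested). Another 5 were higher (78.7% of all genes). These shares over all genes follow from the lower pan-neuronal sum of the stressed samples, which raises this ratio for genes of other cells. A nearer comparison is each of the 17 pan-neuronal genes against the other 16, where 1 was lower and 1 higher. For a single ratio the smallest two-sided exact permutation p with 3 samples against 3 is 0.1, and no p is given since the genes were picked with their values known.

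The 5 members that were higher per pan-neuronal CPM were Tac1, Gal, Ret, Ednrb and Tbx3. Tac1 stood at 19.8, 32.5 and 29.3 per 100 pan-neuronal CPM in controls and at 36.8, 57.4 and 35.1 in stressed samples. Tac1 against Nos1 gave the same order, at 120, 251 and 237 CPM of Tac1 per 100 of Nos1 in controls and 303, 409 and 260 in stressed samples. The lowest stressed ratio and the highest control ratio lay close together. Enterochromaffin cells of the epithelium can also make Tac1. Their enzyme Tph1 was at 31.5, 16.4 and 20.6 CPM in controls and at 24.4, 13.2 and 9.19 CPM in stressed samples, and the part of these cells in Tac1 was not tested. Among the 17 pan-neuronal genes set against the other 16, 15 overlapped between the groups, Stmn3 was lower and Elavl3 higher, with log2 ratios of stressed to control from -0.51 to 0.79.

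**Figure D3:**
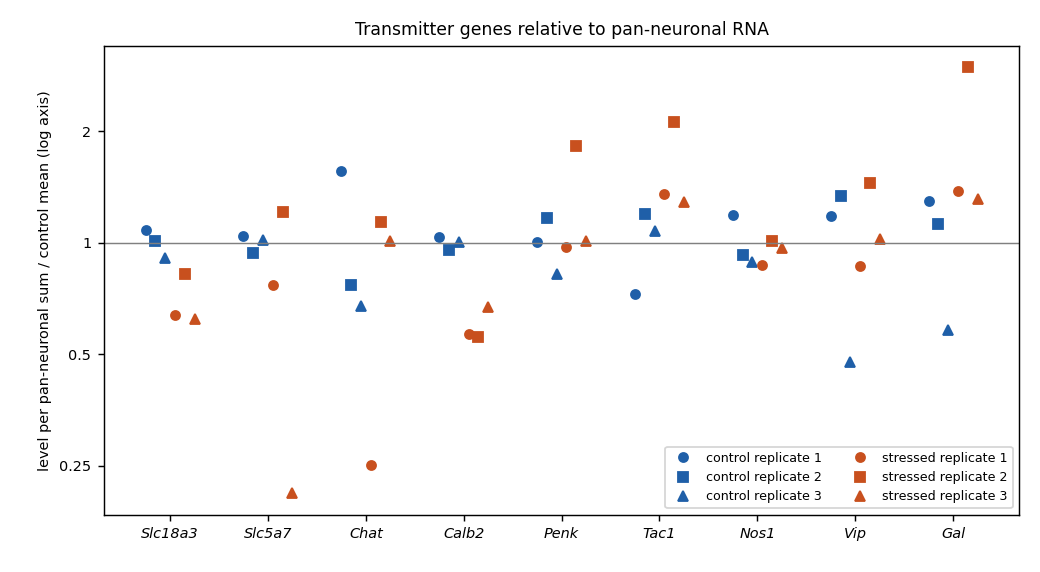
Level of 9 transmitter-related genes per summed pan-neuronal CPM of the same sample, divided by the control mean (log axis), with 1 point per sample. Calb2 and Slc18a3 lie below the controls in all 3 stressed samples, Tac1 and Gal above them, and Nos1 stays near 1.

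The receptors of neural crest development did not share 1 direction. Gfra2 and Gfra1 encode the co-receptors for neurturin and GDNF, which signal through RET. Gfra2 was at 7.30, 10.3 and 10.1 CPM in controls and at 2.82, 3.64 and 2.75 CPM in stressed samples (log2 fold change -1.59 ± 0.26), and Gfra2 was not highest in control replicate 1, unlike most members. Gfra1 was at 8.11, 4.00 and 6.54 CPM and at 3.34, 2.23 and 2.82 CPM, again with no overlap. Ret itself was at 24.6, 22.5 and 15.9 CPM in controls and at 21.7, 26.2 and 35.5 CPM in stressed samples. Ednrb, the endothelin receptor, was at 7.19 to 14.5 CPM in controls and 7.53 to 10.4 CPM in stressed samples. Ret and Ednrb overlapped between the groups, and both are also made by cells other than neurons. Of 8 genes for ligands and their processing, 0 had an unadjusted p under 0.05 in edgeR (8.82% of all genes lower and 7.82% higher), 0 were called by DESeq2 (2.87% and 2.28%) and 2 separated the groups as lower (11.2%). Gdnf was at 1.88 to 2.53 CPM in controls and 0.89 to 1.76 CPM in stressed samples, Nrtn, neurturin, at 3.096 to 4.51 and 2.54 to 7.75 CPM, and Edn3 at 4.83 to 9.73 and 5.14 to 5.94 CPM.

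The transcription factors went separate ways. Hand2, needed for enteric neurons to mature and also made in gut mesenchyme, was at 18.1, 14.3 and 11.9 CPM in controls and at 8.27, 6.61 and 6.44 CPM in stressed samples (log2 fold change -1.05 ± 0.23). Phox2a had 9 to 70 counts and overlapped between the groups. Its exons overlap those of Inppl1 on the opposite strand, and without control replicate 1 its log2 fold change was 0.04. Tbx3 was at 18.5, 59.1 and 45.7 CPM in controls and at 49.1, 109 and 191 CPM in stressed samples. Its log2 fold change was 1.50 ± 0.59, with stressed replicate 3 the highest and overlapping groups. Tbx3 is a T-box factor of some enteric neurons and also a known target of Wnt signalling in epithelium, and the part of epithelial cells in its level was not tested. Calb1, calbindin, had 17 counts in all and was not tested.

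Other genes of enteric neurons that are not on the list of 35 stood lower as well. Of 38 such genes 35 were tested, 31 were lower and 4 higher, with a median log2 fold change of -1.15 (-0.82 without control replicate 1), and 16 separated the groups as lower (11.2% of all genes). At an unadjusted p under 0.05 there were 19 lower and 0 higher (8.82% and 7.82% of all genes), and DESeq2 called 9 lower (2.87%). Endocrine or squamous cells also express 9 of the 38 genes, which were left out as an alternative chosen after seeing the data. Of the 26 tested genes then left, 23 were lower, with a median of -1.105. Among these, 11 separated the groups as lower, 13 were lower at an unadjusted p under 0.05 and DESeq2 called 7 lower. Htr3b and Htr3a, subunits of the serotonin-gated channel, had log2 fold changes of -2.35 ± 0.44 and -1.50 ± 0.37, and Map1b, a microtubule protein, of -0.99 ± 0.20. Calcb, a calcitonin gene-related peptide, was at 4.35, 3.175 and 65.2 CPM in controls and at 1.19, 1.12 and 0.86 CPM in stressed samples, with no overlap. Vsnl1 was at 6.20 CPM in control replicate 3 against 0.19 to 0.85 CPM in the other 5 samples, and its groups overlapped. Both genes were by far highest in the sample with squamous keratin.

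Receptors through which enteric transmitters act gave 11 tested genes, all lower (51.6% of all genes were), with a median log2 fold change of -0.56 and 3 with an unadjusted p under 0.05 (8.82% of all genes). Those were Oprk1, the kappa opioid receptor, at 0.67 to 2.73 CPM in controls and 0.19 to 0.29 CPM in stressed samples, Prkg1, the kinase through which nitric oxide relaxes muscle, with a log2 fold change of -1.23 ± 0.29, and Tacr2, a tachykinin receptor of muscle, with -1.74 ± 0.53.

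Neuronal RNA was not lower alone. The 14 smooth muscle genes were all lower (51.6% of all genes were), with a median log2 fold change of -1.05. Of them 13 separated the groups as lower (11.2% of all genes). In edgeR 14 were lower at an unadjusted p under 0.05 (8.82%), and 0 passed an adjusted p of 0.05. DESeq2 called 12 lower at an adjusted p of 0.05 (2.87%). Their summed level was 6039 to 8315 CPM in controls and 2715 to 4459 CPM in stressed samples. Actg2, the enteric smooth muscle actin, was the least shifted at -0.69 ± 0.29. Per 100 CPM of the muscle sum the pan-neuronal sum was 3.235, 3.055 and 1.746 in controls and 2.27, 1.57 and 2.91 in stressed samples. The groups overlapped, and the median log2 difference of pan-neuronal genes was -0.17 when each sample was scaled to its muscle sum. Muscle and pan-neuronal sums were both lower in the stressed group. Control replicate 3 had the most muscle RNA and the least pan-neuronal RNA of the controls, and stressed replicate 2 likewise among the stressed samples. The muscle sums of control replicates 1 and 3 lay close together, at 8096 and 8315 CPM. An order of 3 samples per group is too few to read further. The part of muscle content in the neuronal result was not tested.

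Most glial genes were lower, while the summed level of all 12, which was mostly Erbb3 and Entpd2, was not. Of 12 tested 10 were lower (51.6% of all genes) and 6 separated the groups as lower (11.2% of all genes). The sum over the 12 genes was 160 ± 33.2 CPM in controls against 163 ± 29.1 CPM under restraint (SD, n = 3 each), and per 100 CPM of it the pan-neuronal sum was 125 ± 35.1 and 48.8 ± 6.58, with no overlap. Erbb3 alone was at 63.0 to 115 CPM in controls and at 102 to 155 CPM in the stressed group. Entpd2 was at 23.1 to 38.15 CPM and at 15.15 to 24.65 CPM. Sox10, the factor of enteric glia, was at 3.44 to 4.35 CPM in controls and 0.67 to 1.76 CPM in stressed samples. Without Erbb3 and Entpd2, which epithelium and other cells also make and which were left out after their values were seen, the glial sum per 100 pan-neuronal CPM was 20.1 ± 1.25 in controls and 22.7 ± 5.40 in stressed samples.

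Of the other lists, that for squamous epithelium had a median log2 fold change of -3.23, with 5 of 5 tested genes lower. Its sum was 2378 CPM in control replicate 3 and 5.087 to 75.7 CPM in the other 5 samples, so the groups overlapped. Lists for interstitial cells, epithelium, enteroendocrine cells, fibroblasts, endothelium and mesothelium had medians closer to 0 than the pan-neuronal genes. For interstitial cells of Cajal, the pacemakers that lie beside the neurons, 2 of 4 genes were lower, 1 of them at an unadjusted p under 0.05, and 2 higher. That 1 gene was Etv1, at 5.08 to 10.5 CPM in controls and 2.62 to 4.59 CPM in stressed samples, with no overlap. Kit was at 28.2 to 34.9 CPM in controls and 22.9 to 31.1 CPM in stressed samples, and Ano1, which epithelium also makes, at 178 to 266 and 175.5 to 301 CPM. Most of the summed level of this list was Ano1, with control means of 218 CPM for Ano1 and 260 CPM for the sum. Epithelial genes had a median log2 fold change of -0.16 and a summed level of 12980 to 17110 CPM in controls and 10930 to 14580 CPM in stressed samples. Enteroendocrine genes, some of whose granule proteins neurons share, had a median of -0.38, with summed levels of 337 to 458 CPM and 151 to 461 CPM. Fibroblast and endothelial genes had medians of 0.19 and 0.09. Per 100 epithelial CPM the pan-neuronal sum was 1.33 ± 0.259 in controls and 0.610 ± 0.107 in stressed samples, with no overlap. Mesothelial genes of the outer surface were scarce, with sums of 7.79 to 12.1 CPM in controls and 8.88 to 26.9 CPM in stressed samples.

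**Figure D4:**
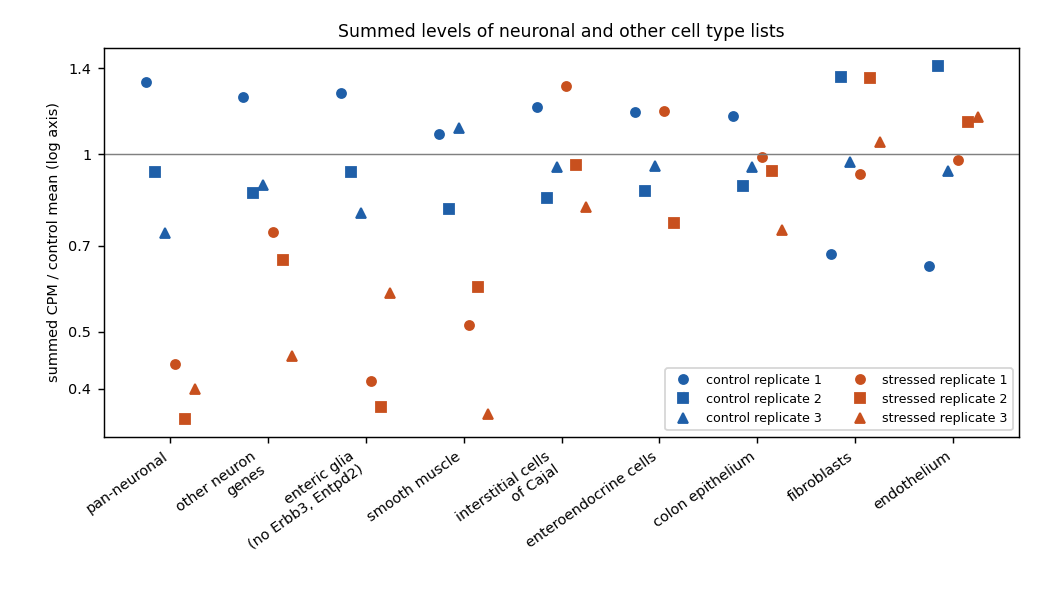
Summed CPM of 9 gene lists in each sample, divided by the mean of the 3 controls (log axis). The sums of pan-neuronal genes, other neuronal genes, glia (without Erbb3 and Entpd2) and smooth muscle lie below all controls in every stressed sample, while interstitial cell, enteroendocrine, epithelial, fibroblast and endothelial sums overlap between the groups.

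Levels of different genes can be set side by side only per length, in the deposited FPKM, which divides fragments by gene length and sequencing depth. In controls the peptide precursors led, with Tac1 at 49.02 ± 9.33 FPKM, Vip at 43.0 ± 24.9 and Penk at 26.5 ± 9.13 (SD, n = 3), an order within which neighbours did not differ beyond their spread. Then came Uchl1 at 19.8 ± 6.12, Prph at 13.6 ± 4.54, Sncg at 13.1 ± 2.14 and Stmn2 at 11.8 ± 1.29 FPKM. The acetylcholine genes stood low, at 1.16 ± 0.396 FPKM for Slc18a3, 1.08 ± 0.309 for Slc5a7 and 0.413 ± 0.304 for Chat, against 2.84 ± 1.20 FPKM for Nos1. In stressed samples Tac1 stood at 32.7 ± 5.65 FPKM and Tbx3, at 24.7 ± 15.8 FPKM, came second.

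The samples did not form 2 even groups. Control replicate 1 was the highest of the 6 for 28 of the 34 tested members and for all 17 pan-neuronal genes. Its total of 28999355 counts lay within the range of the others. Without it the median log2 fold change was -0.94 for all members and -1.01 for pan-neuronal genes. The number of members separating the groups as lower was 25, a count that leaving out a sample could hardly reduce. With control replicate 2 as the only control, an alternative chosen after seeing the data, the pan-neuronal median was -1.27. Stressed replicates 2 and 3 were the lowest for 12 and 13 of the tested members.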

How the data were processed

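Colon RNA of 6 samples was sequenced. The authors deposited raw read counts per gene and FPKM values, per the file headers. The submitters' processing notes list HISAT2 2.1.0, StringTie 1.3.4d, fastp 0.19.3, edgeR 3.24.3, featureCounts 1.6.2, DESeq2 1.22.1 and the build GRCm39, with no role for any of them. The sources used here do not give the strand setting or annotation. From the counts, genes were filtered with filterByExpr (15890 of 20170 kept, 34 of 35 members), scaled with TMM and tested with the edgeR 4.0.16 quasi-likelihood test (robust, R 4.3.3, 3 samples against 3, Benjamini-Hochberg over all genes). The SE is the absolute log2 fold change over the square root of F. DESeq2 1.42.0 and limma-voom (limma 3.58.1) were alternatives. The fit was tested on simulated data. List sums and ratios use TMM-scaled CPM. FPKM served to compare levels between genes and as an alternative for the excitatory and inhibitory ratios.

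The members and all lists were chosen with earlier results of these data known. All members are named; of other lists, up to 3 genes of smallest p plus some fixed names were considered, and not every one of these is printed. Calcb, Vsnl1, Tph1, Htr3a, Epcam, Erbb3 and Entpd2 were chosen after their values were seen, as were the motifs. Symbols Gucy1a1 and Gucy1b1 were not matched and are not analysed here, and some genes of the lists are not reported here by name. Replicate numbers follow accession order. Promoters were matched by symbol to RefSeq (GRCm38.p6), another build than the counts, and exon overlaps come from GENCODE M21; neither was used for counting.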

Additional observations from a re-analysis of the deposited data

How the results depend on the processing

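No paired analysis was possible because the labels give no replicate numbers shared between the groups. DESeq2 called 818 genes where edgeR called 0, and the cause was not tested. In edgeR 0 genes passed under every other scaling, filter and left-out sample, and in limma-voom. The count of 25 members separating the groups as lower was 25 under all scalings. With 1 sample left out this count was 25 to 27. Removing a sample cannot undo a separation, save through rescaling, so this count could hardly fall and is no check. The median of all members ran from -1.42 to -0.94 with 1 sample left out, of pan-neuronal genes from -1.44 to -1.01, of excitatory genes from -1.99 to -0.98, of inhibitory genes from -1.31 to -0.45 and of the other neuronal genes from -1.33 to -0.82. The log2 ratio of excitatory to pan-neuronal CPM was 0.47 (0.17 to 0.61 with 1 sample left out) and that of inhibitory genes 0.17, from -0.092 to 0.33, so the latter changed sign. From the deposited FPKM, the excitatory value was 0.56 and the inhibitory value 0.36. Scaled to smooth muscle, an alternative chosen after seeing the data, the pan-neuronal median was -0.17, because muscle genes were lower too. Of 440 values of single members under the alternatives, 416 kept direction and side of the threshold and 21 passed in DESeq2 only. The 3 reversals were Npy without stressed replicate 3 (-0.27, range to 0.88), Ednrb without control replicate 2 (0.070, range from -0.47) and Phox2a without control replicate 1 (0.040, range from -1.07). Depth limits Chat, Npy, Phox2a and Calb1, which have few counts, and Slc18a3 in stressed samples, at 22 to 26 counts.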
